A study of Mus musculus with 8 samples.

Results

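The genes described here are 35 base excision and end joining repair genes of the mouse, followed at the level of the gene and of splicing in B cells with and without Prmt5. They were listed by name for their known roles, with earlier results of these data known, and all 35 were found by symbol among the 39017 genes of the expression table. Prmt5 is an arginine methyltransferase whose substrates include core proteins of the spliceosome. The question was how its loss changes the RNA of activated B cells. RNA-seq was performed on iGBs, primary splenic B cells that acquire germinal center features when grown on 40LB feeder cells. The Prmt5-null group carried the floxed Prmt5 alleles (Prmt5F/F) together with Cγ1-cre. The Control group carried Cγ1-cre alone, so that both genotypes expressed the recombinase. All mice were of the C57BL6/J strain and a few months old, of both sexes, with no age or sex given for a single library. The feeder cells display CD40L and BAFF, IL-4 was added at 1 ng/mL, and the B cells were taken off the feeders by elutriation on day 4. Because Cγ1-cre acts only once a B cell has been activated, the cells carried intact Prmt5 until they were put into culture. Each genotype had 4 libraries, each from a different mouse, made in 2 experiments, and which experiment a library came from is not given. Libraries are named as in the labels, PRMT5 for Prmt5-null or CTRL for Control with the number of the mouse.

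Base excision repair removes a damaged or wrong base with a DNA glycosylase, cuts the backbone at the abasic site, fills the gap and seals the nick. End joining holds broken DNA ends together, trims or fills them and ligates them without a homologous template. In B cells both pathways also act on the lesions and breaks that arise in antibody genes during class switching, beside their part in genome upkeep.

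The reads assigned to genes ranged from 36731721 in mouse CTRL-10597 to 50366174 in mouse CTRL-10370. The median was 44996131 in the Prmt5-null group and 45146954 in the Control group. Expression is given as normalized counts, meaning the reads on a gene divided by the DESeq2 size factor of the library. A gene was tested with limma when its mean over the 8 libraries was at least 10, fold changes are on the log2(normalized count + 1) scale as Prmt5-null over Control, and adjusted p-values cover all 16250 genes tested. A gene is said to rise or fall when its limma adjusted p was below 0.05, at any fold or with a change of at least 1.5-fold.

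Prmt5 (chr14:54507187-54517525 of GRCm38, minus strand) was read first, since it is the targeted gene. It measured 1291, 1994, 1060 and 1808 normalized counts in Prmt5-null mice PRMT5-10617, PRMT5-10618, PRMT5-10770 and PRMT5-10771, and 13087, 11084, 11657 and 11267 in Control mice CTRL-10650 and CTRL-10370 followed by CTRL-10596 and CTRL-10597. Every Prmt5-null library was far below every Control library. Normalized counts of single libraries are given in this order of mice throughout. Prmt5 fell by 2.98 on the log2 scale (SE 0.17, limma adjusted p = 6.14e-06), to 13.1% of the Control mean.

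Of the 35 repair genes, 34 reached the minimum mean and were tested. The exception was Neil2, which ranged from 7.15 to 10.8 normalized counts in the Prmt5-null libraries and from 0 to 20.1 in the Control libraries, with the 0 in mouse CTRL-10650. Only Neil3 changed by at least 1.5-fold, 1 of 34 members, beside 6.48% of all genes tested. At any fold 6 of 34 members changed (17.6%), beside 13.8% of all genes tested. Those that rose were Polb and Polg, 2 of 34, where 6.51% of all genes rose. Those that fell were Neil3, Ogg1, Xrcc5 and Lig3, 4 of 34, where 7.33% of all genes fell. The count at any fold went down to 3 when mouse PRMT5-10771 was left out, with 1374 in place of 2249 of all genes, and the count at 1.5-fold went up to 2 without mouse PRMT5-10618. The genotypes did not overlap for 9 of 34 members, 4 higher and 5 lower in Prmt5-null, beside 19.8% of all genes tested.

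By the sign of the fold change alone, 14 members were higher and 20 lower in Prmt5-null, with a median log2 fold change of -0.09. The median over all genes tested was 0.0024. Changes were mostly small, since 33 of the 34 stayed within 1.5-fold and the median absolute log2 fold change was 0.18, against 0.19 over all genes. An unadjusted limma p below 0.05 was found for 13 of the 34 members, beside 4755 of the 16250 genes tested. Being bulk measurements, these values cannot tell apart fewer cells of a type and less RNA per cell.

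**Figure D1:**
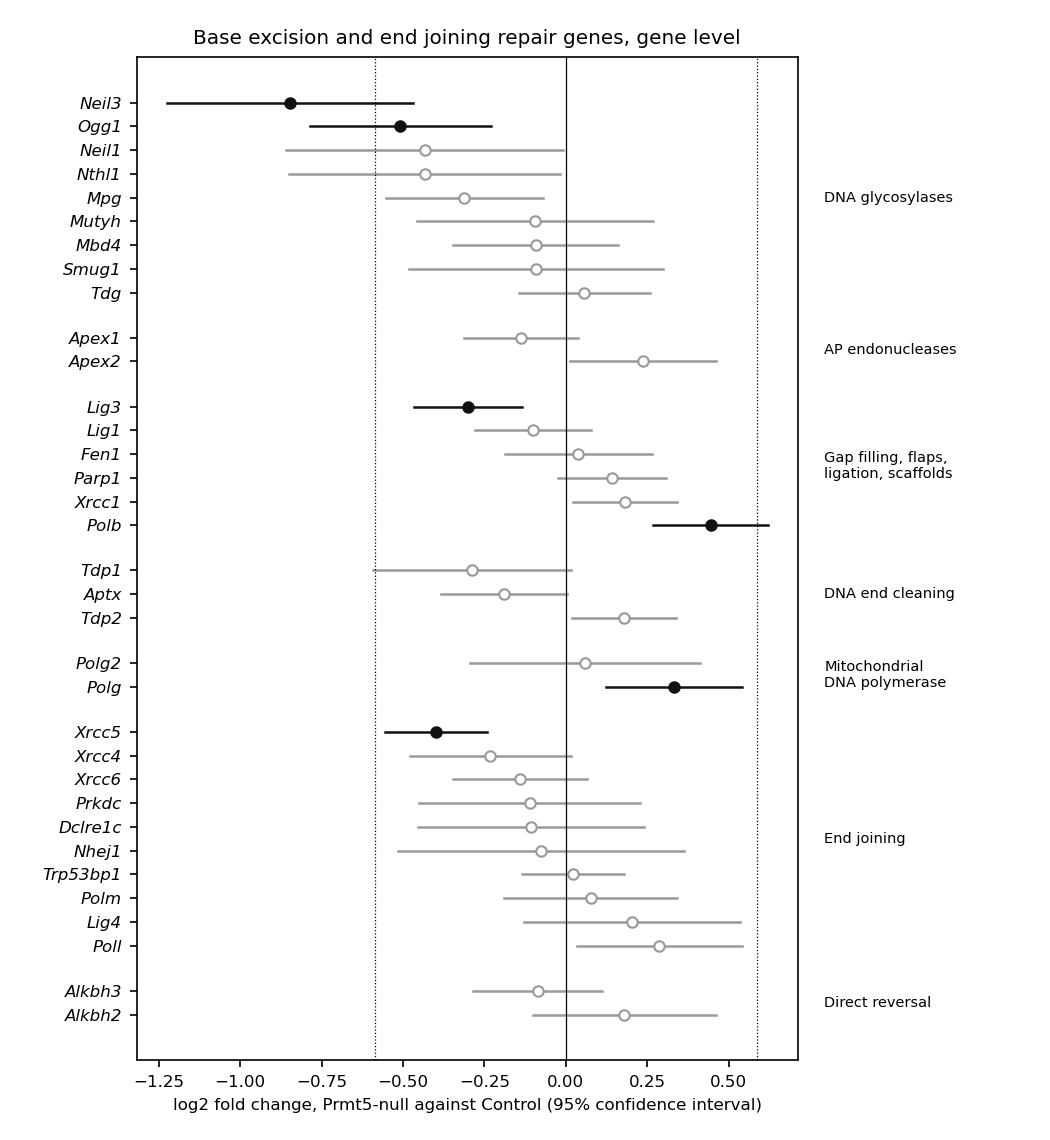
Log2 fold change of each of the 34 tested members, Prmt5-null over Control, with its 95% confidence interval from limma, grouped by role. Filled points mark the 6 genes with an adjusted p below 0.05 and dotted lines mark 1.5-fold; 8 of the 9 DNA glycosylases lie to the left of 0.

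The DNA glycosylases start base excision by cutting out the wrong base. Among the 9 tested, 8 had negative and 1 a positive log2 fold change (median -0.31), beside 8066 negative and 8184 positive among all genes tested. At any fold 2 of the 9 fell, beside 7.33% of all genes, and 7 did not pass. Neil3 is a glycosylase for oxidized bases that acts on single-stranded DNA and at replication forks. Its normalized counts were 346.3, 395.1, 231.5 and 340.0 in Prmt5-null, and 448.1, 636.6, 648.6 and 615.0 in Control. The groups did not overlap, and the lowest values within them belonged to mouse PRMT5-10770 and mouse CTRL-10650. Neil3 fell by 0.85 on the log2 scale (SE 0.17, limma adjusted p = 0.00734), to 55.9% of the Control mean. It stayed below an adjusted p of 0.05 in all 18 alternatives tried, the highest being 0.0295.

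Ogg1 removes oxidized guanine paired with cytosine. It measured 239.8, 270.5, 278.1 and 256.9 normalized counts in Prmt5-null and 352.2, 441.3, 387.0 and 316.4 in Control. All 4 Prmt5-null libraries lay below the lowest Control library, mouse CTRL-10597. Ogg1 fell by 0.51 (SE 0.13, limma adjusted p = 0.0212). With 1 library fewer the adjusted p became 0.058 without mouse PRMT5-10617, 0.0613 without mouse PRMT5-10771, 0.0634 without mouse CTRL-10370 and 0.0618 without mouse CTRL-10596. The log2 fold changes in these fits were -0.47, -0.50, -0.43 and -0.49. Ogg1 shares 232 exonic bases with Camk1 on the opposite strand, and because the strand setting of the read counting is not stated, its level is uncertain to that extent.

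Neil1, which removes oxidized bases, was the most abundant glycosylase per kb of exon. It measured 4738, 6529, 2998 and 4968 normalized counts in Prmt5-null and 5761, 5472, 7872 and 6183 in Control. The genotypes overlapped, with mouse PRMT5-10618 above all but 1 Control library and mouse PRMT5-10770 below all others. The log2 fold change was -0.43 (SE 0.19, limma adjusted p = 0.161), and as each library was left out in turn it ranged from -0.60 to -0.22. The limma adjusted p ranged from 0.0356 without mouse PRMT5-10618 to 0.36 without mouse CTRL-10596, and 1 of these 8 fits passed. Mpg, the glycosylase for alkylated purines, measured 1165, 1140, 1246 and 972.5 in Prmt5-null and 1189, 1614, 1466 and 1363 in Control. Only mouse PRMT5-10770 and mouse CTRL-10650 crossed between the groups. The log2 fold change of Mpg was -0.31 (SE 0.11, limma adjusted p = 0.0821), and as libraries were left out the limma adjusted p ranged from 0.0442 without mouse CTRL-10650 to 0.218 without mouse PRMT5-10771. Mpg also shares 1340 exonic bases with Nprl3 on the other strand.

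Mutyh cuts out adenine placed opposite oxidized guanine, and its RNA level overlapped widely between the genotypes. It measured 465.7, 587.0, 324.6 and 455.9 normalized counts in Prmt5-null and 405.0, 497.5, 547.4 and 477.5 in Control. Prmt5-null libraries held both the highest value, in mouse PRMT5-10618, and the lowest, in mouse PRMT5-10770. The log2 fold change was -0.09 (95% confidence interval -0.46 to 0.27, limma adjusted p = 0.751), and its sign turned to 0.06 without mouse PRMT5-10770. Nthl1, a glycosylase for oxidized pyrimidines, spanned 89.7 to 125.9 in Prmt5-null and 111.4 to 180.1 in Control, with a log2 fold change of -0.43 and a limma adjusted p of 0.155. The groups overlapped here too.

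The glycosylases for uracil and thymine showed smaller differences. Mbd4, which acts on thymine or uracil paired with guanine, ranged from 1246 to 1719 in Prmt5-null and from 1403 to 1819 in Control. Tdg, with a similar range of substrates, ranged from 1880 to 2406 and from 1811 to 2042 and was the only glycosylase with a higher mean in Prmt5-null. Smug1, which removes uracil, ranged from 172.0 to 273.1 and from 172.1 to 258.9. All 3 overlapped between genotypes, their log2 fold changes were -0.09, 0.06 and -0.09, and their limma adjusted p-values were 0.638, 0.733 and 0.778. Leaving out mouse PRMT5-10770 turned Tdg to -0.02, and leaving out mouse CTRL-10596 brought Smug1 to 0.0001. Mbd4 was at -0.009 without mouse PRMT5-10617 and at -0.16 without mouse PRMT5-10771.

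AP endonucleases cut the backbone beside the abasic site that a glycosylase leaves. Apex1, the main one, ranged from 4969 to 6084 normalized counts in Prmt5-null and from 5766 to 6375 in Control. Apex2, the minor one, measured 503.7, 576.8, 511.8 and 601.6 in Prmt5-null and 435.1, 444.9, 480.2 and 498.9 in Control. Apex1 overlapped between the genotypes, whereas all 4 Prmt5-null libraries were above all Control libraries for Apex2, by a small margin. By limma, edgeR and DESeq2 0 of the 2 changed, with 1 at an unadjusted limma p below 0.05 and log2 fold changes of -0.14 (adjusted p = 0.278) and 0.24 (adjusted p = 0.151).

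The gap filling, flap, ligation and scaffold proteins complete the repair. Among the 6 of this group, means were up in 4 and down in 2, 1 rose (beside 6.51% of all genes tested) and 1 fell (beside 7.33%), and 4 did not pass. Polb encodes the polymerase that fills the short gap. It measured 2540, 2672, 2850 and 2541 normalized counts in Prmt5-null and 1955, 2061, 2043 and 1741 in Control. The lowest Prmt5-null library was well above the highest Control library. Polb rose by 0.44 on the log2 scale (SE 0.08, limma adjusted p = 0.00398), and none of the 18 alternatives took its adjusted p above 0.0158.

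Lig3 seals the nick together with Xrcc1. Its values were 2849, 2573, 2734 and 2549 in Prmt5-null and 3626, 3124, 3232 and 3223 in Control. The groups were apart, and mouse CTRL-10650 had the highest value of all. Lig3 fell by 0.30 (SE 0.08, limma adjusted p = 0.0213), with an adjusted p of 0.0749 once mouse PRMT5-10771 was left out and of 0.0636 once mouse CTRL-10650 was. It shares 1826 exonic bases with Rffl on the opposite strand, a gene with a mean of 1122 normalized counts, so that reads of Rffl may be among those counted for Lig3.

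Xrcc1, the scaffold that binds Lig3 and Polb, measured 5670, 5754, 5432 and 5624 in Prmt5-null and 4461, 5255, 5193 and 4952 in Control. All Prmt5-null values were higher than all Control values, but the log2 fold change of 0.18 had a limma adjusted p of 0.122. Parp1, which senses strand breaks and marks them with poly(ADP-ribose), ranged from 39560 to 43988 in Prmt5-null and from 36585 to 40278 in Control (log2 fold change 0.14, adjusted p = 0.241). Fen1, the flap nuclease, ranged from 8419 to 11884 and from 9003 to 9919, and Lig1, the ligase of DNA replication, from 4837 to 5920 and from 5371 to 6180. These 3 overlapped between genotypes, with log2 fold changes of 0.04 for Fen1 and -0.10 for Lig1. Fen1 turned to -0.06 without mouse PRMT5-10770.

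Enzymes that clean DNA ends came next. Tdp2 frees ends from trapped type II topoisomerase and measured 2193, 2287, 2148 and 2320 in Prmt5-null and 1946, 2018, 1843 and 2106 in Control. Aptx removes the adenylate that a failed ligation leaves, with 666.6, 626.8, 682.7 and 588.5 in Prmt5-null and 711.9, 758.7, 723.0 and 729.9 in Control. Both were apart between the genotypes, Tdp2 upward and Aptx downward. The log2 fold changes were small, at 0.18 (limma adjusted p = 0.131) and -0.19 (limma adjusted p = 0.175). Tdp1, which acts on trapped type I topoisomerase, ranged from 484.7 to 697.8 and from 629.2 to 903.7 and overlapped (log2 fold change -0.29, limma adjusted p = 0.192). By limma 0 of the 3 changed, with 1 at an unadjusted p below 0.05, and edgeR and DESeq2 on the recovered reads called 0 as well.

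In mitochondria base excision uses its own DNA polymerase, whose catalytic subunit is Polg. Normalized counts of Polg were 5487, 6153, 4739 and 5569 in Prmt5-null and 3863, 4239, 4850 and 4461 in Control. The only crossing was mouse PRMT5-10770, which lay below mouse CTRL-10596. Polg rose by 0.33 (SE 0.10, limma adjusted p = 0.0386), and the exact permutation test of 4 against 4 gave a p of 0.0571, where 0.0286 is the smallest possible. This call was the least stable of the 6, passing in 9 of 18 alternatives. The adjusted p was 0.0818 without mouse PRMT5-10617, 0.0794 without PRMT5-10618 and 0.0984 without PRMT5-10771, and 0.106, 0.0862 and 0.0694 without Control mice CTRL-10650, CTRL-10370 and CTRL-10597. Polg shares 921 exonic bases with Fanci on the other strand, a gene with a mean of 2109 normalized counts. Its accessory subunit Polg2 ranged from 490.7 to 734.0 in Prmt5-null and from 500.8 to 746.5 in Control, with a log2 fold change of 0.06 that became -0.03 without mouse PRMT5-10618 or mouse PRMT5-10771 and -0.02 without mouse CTRL-10650.

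**Figure D2:**
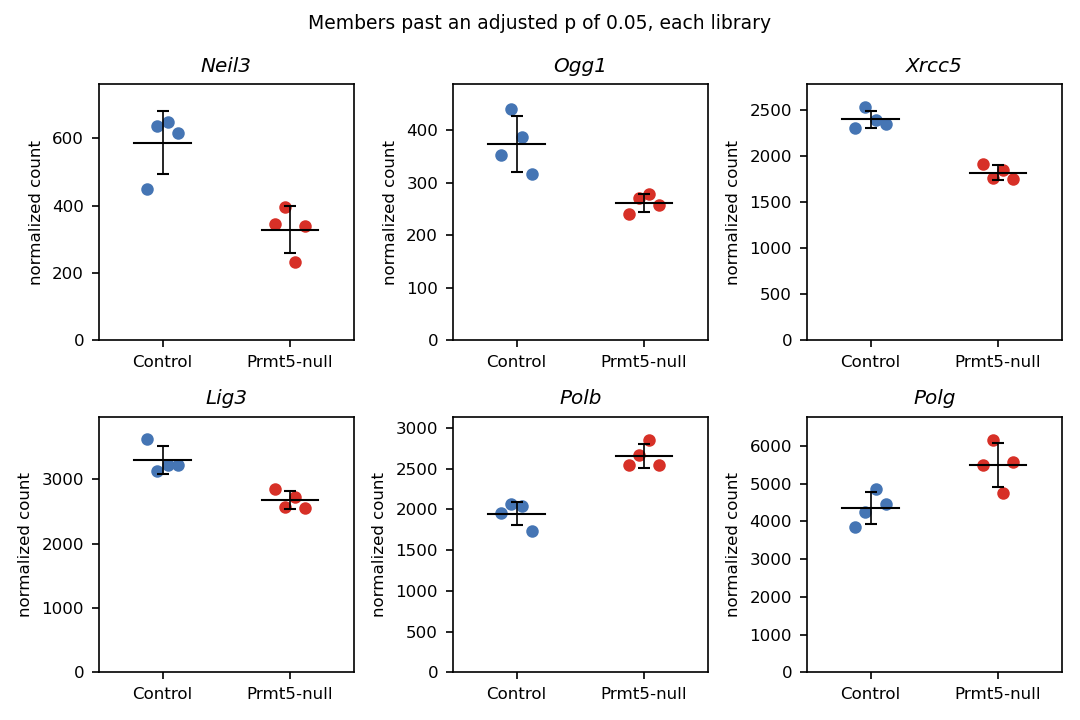
Normalized counts of the 6 members with an adjusted p below 0.05, with a point for each library, a line at the mean and error bars of 1 SD (n = 4 a genotype). Neil3, Ogg1, Xrcc5 and Lig3 are lower and Polb is higher in every Prmt5-null library than in any Control library, and Polg overlaps.

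Among the 10 end joining genes 4 were higher and 6 lower, with a median log2 fold change of -0.09. At any fold 1 of the 10 passed, a fall, beside 13.8% of all genes tested. Xrcc5 encodes the larger subunit of Ku, the ring that loads on broken ends. It measured 1917, 1756, 1850 and 1746 normalized counts in Prmt5-null and 2309, 2531, 2396 and 2352 in Control. The spread within each genotype was small beside the gap between them. Xrcc5 fell by 0.40 (SE 0.07, limma adjusted p = 0.00379) to 75.8% of the Control mean, with adjusted p-values of at most 0.0186 in the 18 alternatives. Its partner Xrcc6, the smaller Ku subunit, measured 3230, 2889, 3924 and 3146 in Prmt5-null and 3612, 3888, 3490 and 3485 in Control. For Xrcc6 the genotypes overlapped, since mouse PRMT5-10770 had the highest value of all 8. The log2 fold change of Xrcc6 was -0.14 (limma adjusted p = 0.348). As each library was left out it ranged from -0.23 to -0.08, and the lowest limma adjusted p was 0.0605. The difference between the changes of both subunits was not tested.

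Xrcc4, which with Lig4 forms the ligase of end joining, measured 503.7, 463.5, 640.5 and 505.4 in Prmt5-null and 623.6, 643.7, 573.4 and 625.7 in Control. mouse PRMT5-10770 stood among the Control values and the other 3 below all of them. The log2 fold change was -0.23 (limma adjusted p = 0.197), and it was -0.33 with an adjusted p of 0.0434 without mouse PRMT5-10770. Lig4 ranged from 227.2 to 302.7 in Prmt5-null and from 194.3 to 271.5 in Control, and Nhej1, which bridges the ends beside Xrcc4, from 103.1 to 161.2 and from 102.3 to 164.9. Both overlapped between genotypes (log2 fold changes 0.20 and -0.08, limma adjusted p = 0.41 and 0.84). The sign of Nhej1 turned, to at most 0.04, without mouse PRMT5-10618 (0.01), mouse PRMT5-10771 (0.004) or mouse CTRL-10370 (0.04).

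Prkdc, the kinase that Ku recruits, ranged from 3519 to 6613 in Prmt5-null and from 4788 to 6126 in Control. Dclre1c, the Artemis nuclease that the kinase activates, ranged from 785.5 to 1511 and from 1068 to 1179. In both genes mouse PRMT5-10618 was the highest of all 8 libraries and mouse PRMT5-10770 the lowest. The log2 fold changes were -0.11 for each (limma adjusted p = 0.682 and 0.701), and without mouse PRMT5-10770 they turned to 0.04 for Prkdc and 0.03 for Dclre1c. The gap-filling polymerases Poll and Polm had ranges of 1051 to 1411 and 697.8 to 837.1 in Prmt5-null and of 913.6 to 1195 and 560.1 to 803.6 in Control. Both overlapped, with log2 fold changes of 0.29 (limma adjusted p = 0.125) and 0.08 (limma adjusted p = 0.728), and Polm turned to -0.04 without mouse CTRL-10650. Trp53bp1, which protects ends from resection, had the smallest fold change of the members, at 3167 to 3560 against 3198 to 3555 with a log2 value of 0.02, or -0.004 without mouse PRMT5-10618.

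The direct reversal enzymes strip alkyl groups from bases without cutting the DNA. Alkbh2 ranged from 217.4 to 260.2 normalized counts in Prmt5-null and from 188.4 to 233.7 in Control, and Alkbh3 from 1069 to 1280 and from 1145 to 1320. Both overlapped between genotypes, with log2 fold changes of 0.18 (limma adjusted p = 0.388) and -0.09 (limma adjusted p = 0.571). By limma, edgeR and DESeq2 0 of the 2 changed, and 0 had an unadjusted limma p below 0.05.

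Levels of different members can be compared only after division by exonic length. Per kb of exon the Control means were highest for Parp1, at 7234 normalized counts, followed by Apex1 at 4246, Fen1 at 3861, Neil1 at 3379 and Lig1 at 1357. At the other end stood Nthl1 at 55.5, Apex2 at 53.2, Lig4 at 45.0, Smug1 at 35.2 and Neil2 at 1.85. On the same scale Xrcc5 had 938 and Xrcc6 809, with Xrcc1 between them at 852. The glycosylases lay between Neil2, the lowest of the members, and Neil1.

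Among the Prmt5-null libraries, mouse PRMT5-10770 was the lowest for 13 of the 34 members (38.2%) and the highest for 11 (32.4%). Over all genes tested the same library was the lowest for 33.0% and the highest for 33.3%. In the Control group mouse CTRL-10650 was the lowest for 13 members (38.2%), where 24.6% of all genes had their lowest Control value in it. Mouse CTRL-10370 was the highest Control library for 14 members (41.2%, beside 28.3% of all genes) and the lowest for 4 (11.8%, beside 26.1%). Exons of 19 members overlap exons of another annotated gene, 17 only on the opposite strand and 2 on the same strand, which were Alkbh3 with Gm27027 and Parp1 with the microRNA gene Mir6904. Neil3 and Xrcc5 overlap no other gene.

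Other genes of these pathways, listed from general knowledge, were read for comparison. Of 34 further base excision and strand break repair genes, 15 were higher and 19 lower, and 3 rose and 3 fell at any fold. Of 31 further end joining and break response genes, 30 were tested, 12 higher and 18 lower, and 1 rose and 3 fell. With the genes held by both lists counted once, 9 of 62 changed at any fold (14.5%), beside 13.8% of all genes tested. Over all genes tested 6.51% rose and 7.33% fell at any fold. A gene of the first list past 1.5-fold was Mgmt, which takes alkyl groups off guanine and measured 782.3, 805.5, 1003 and 781.9 in Prmt5-null and 458.8, 480.5, 397.8 and 406.4 in Control. The lowest Prmt5-null library was far above the highest Control library. Mgmt rose by 0.95 (SE 0.11, limma adjusted p = 0.000327).

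Marker genes described the cells behind these values. For the counts of markers below, the shares over all genes tested were 6.51% that rose and 7.33% that fell at any fold. At 1.5-fold 6.48% of all genes tested changed. All 10 B cell markers were present, led by Cd74, and their summed normalized counts were 353529, 402621, 337262 and 366017 in Prmt5-null and 379223, 403790, 428459 and 387398 in Control, which overlapped. At any fold 2 of them fell, Cd79a by 0.74 and Ebf1 by 0.52. The 6 plasma cell markers, led by Xbp1, summed to between 37696 and 45364 and between 41183 and 58381. At any fold 2 of them fell, Xbp1 by 0.45 (limma adjusted p = 0.0305) and Prdm1 by 0.48 (limma adjusted p = 0.0428). Of the 6, 3 had a positive and 3 a negative log2 fold change, and Irf4, at 14055 to 15374 in Prmt5-null and 11263 to 13738 in Control, did not pass (limma adjusted p = 0.134). At 1.5-fold 0 passed in limma, edgeR or DESeq2, with 4 at an unadjusted p below 0.05, and 1 passed without mouse PRMT5-10618 or mouse CTRL-10370.

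Fibroblast markers, which the 40LB feeder cells express, were higher in Prmt5-null. The 15 markers summed to 25540, 17132, 20470 and 21345 normalized counts in Prmt5-null and to 16976, 11568, 12451 and 14081 in Control. The lowest Prmt5-null sum was just above the highest Control sum, and the ratio of the means was 1.53. Vim was the most abundant marker, with a mean of 10614 in Prmt5-null and 6680 in Control, where the mean sums were 21122 and 13769. It gave 9283 of the 17132 in mouse PRMT5-10618 and 7893 of the 16976 in mouse CTRL-10650. The separation of the sums therefore depends on Vim. Lum and Postn had means below 10, and all 13 tested were higher in Prmt5-null. Those that rose by at least 1.5-fold were Col3a1 (1.02 on the log2 scale), Sparc (0.83), Col1a2 (0.72) and Vim (0.67), and the number that did so ranged from 2 to 7 over the alternatives, with 2 without mouse PRMT5-10617, mouse CTRL-10370 or mouse CTRL-10596 and 6 without mouse PRMT5-10618 or mouse CTRL-10650. The part of feeder cell RNA in the values of the repair genes was not tested.

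Of 8 T cell markers, Cd3e was at 0 in all libraries and Cd3d, Cd3g, Cd4 and Cd8a had means below 10. Their sum of 568.0 to 716.7 in Prmt5-null and 894.0 to 1017 in Control came mostly from Lck, which fell by 0.94. Of 8 myeloid markers, S100a8 and S100a9 were at 0 and Cd14, Csf1r and Fcgr1 had means below 10. Their sum was 171.3 to 297.5 in Prmt5-null and 109.0 to 214.9 in Control, which overlapped. Adgre1, the most abundant, rose by 0.70 (limma adjusted p = 0.0424) and was the only one to pass. The log2 fold changes of Itgam (0.92) and Lyz2 (0.63) were also past 1.5-fold, without an adjusted p below 0.05. At 1.5-fold 0 passed when any of Prmt5-null mice PRMT5-10618, PRMT5-10770 and PRMT5-10771 or Control mice CTRL-10370, CTRL-10596 and CTRL-10597 was left out. The same held with no filter, with quantile normalization, without a trend and in the lowest of 18 placements of an experiment block. The 20 S phase genes, led by Mcm6, summed to between 168518 and 195926 in Prmt5-null and between 166728 and 183019 in Control. At any fold 3 of them fell, Ccne1 by 0.58, Cdc6 by 0.24 and Mcm7 by 0.26. By 1.5-fold 0 of them changed in limma, edgeR or DESeq2 and 7 had an unadjusted p below 0.05, while 1 changed without mouse PRMT5-10617 or mouse CTRL-10370. The 12 mitosis genes, led by Top2a, summed to between 151852 and 159553 in Prmt5-null and between 173782 and 190877 in Control, with no overlap, and 1 gene, Top2a, fell at any fold, by 0.35. The bearing of these shifts on the repair genes was not tested.

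Splicing was read from 5 tables of rMATS events that the authors chose by their own test on these libraries, so that events are described here without a test. Each event has an inclusion level, the share with the exon, intron or longer exon end among the forms counted for that event. For mutually exclusive exons it is the share with the first in the gene. The levels are a list of 4 of the authors' values for each genotype whose libraries are not named. Differences are the mean Prmt5-null level minus the mean Control level. The tables held 1918 events in 1519 genes, which is 11.4% of the 13300 genes with a mean above 50. Of the 34 members with a mean above 50, 9 had an event (26.5%), with 14 events in all. As the list was drawn up with such results known, nothing is read from these shares. They were Mutyh, Neil1, Neil3, Lig3, Tdp2, Polg, Polg2, Dclre1c and Alkbh3. A difference of at least 0.25 was found in 5 of them (14.7%, beside 2.69% of all genes), and 7 had an event with at least 20 reads in each library (20.6%, beside 7.71%). Neil3, Lig3 and Polg were the 3 of these 9 that also changed at any fold, beside 18.6% of all genes with an event.

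By type, 6 of the 7 skipped exon events of the members were lower in Prmt5-null, meaning more skipping, as were 615 of 913 such events in all genes. Both retained intron events were higher, as were 86.9% of the 337 in all genes. The 3 events of mutually exclusive exons were also higher, as were 56.3% of the 350 in all genes. So were the 2 of alternative 5′ splice sites, beside 64.7% of the 190 in all genes. There was no event of alternative 3′ splice sites. In 11 of the 14 events the levels did not overlap between genotypes, beside 50.8% of all events. None of the 7 skipped exons of the members, so 0, had a length that is a multiple of 3, beside 41.8% of all skipped exon events. The median absolute difference was 0.28 for the members and 0.16 for all events, and the median number of reads in the lowest library was 26 and 41.

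**Figure D3:**
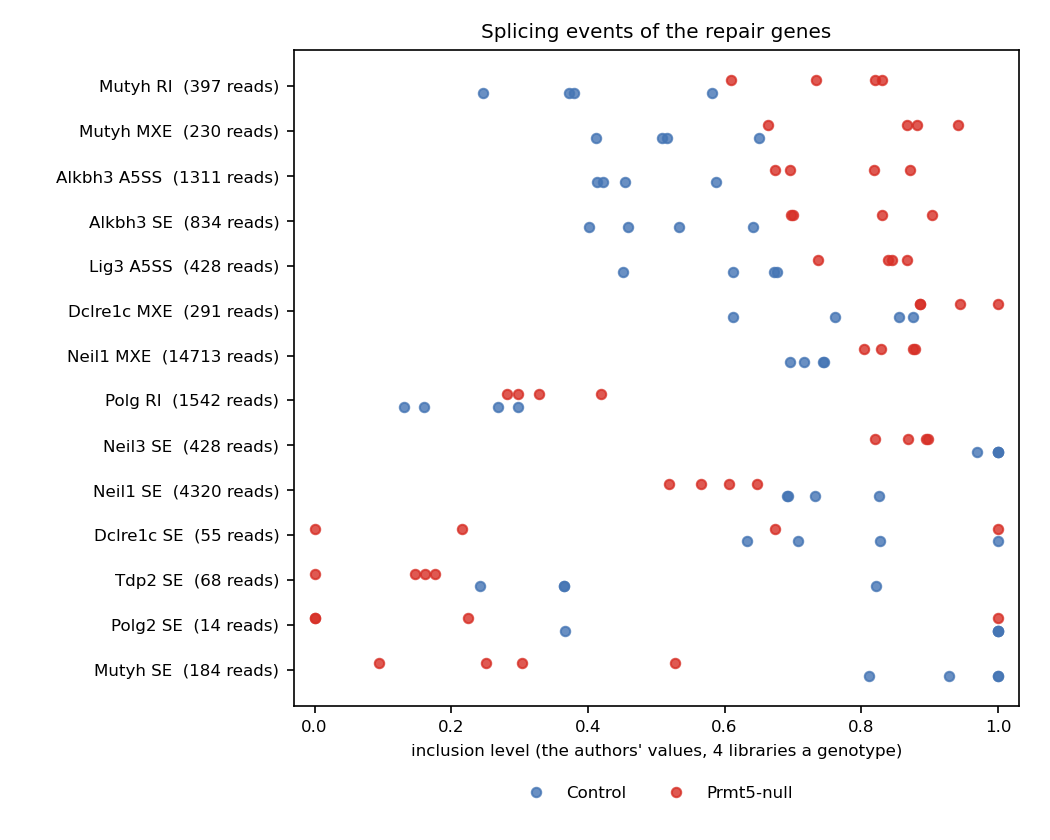
Inclusion levels of the 14 events of the members, with 4 values a genotype as the authors' tables list them and the total reads in parentheses (SE, skipped exon; RI, retained intron; MXE, mutually exclusive exons; A5SS, alternative 5′ splice site). Points of the genotypes are apart in 11 events and overlap for the skipped exons of Polg2 and Dclre1c and the retained intron of Polg.

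Mutyh had the largest difference in inclusion among the members. The event is exon 9 of 16 of its principal transcript, 98 bases at chr4:116816778-116816875 of GRCm38 on the plus strand, within the coding sequence. The authors' inclusion levels were 1, 0.812, 0.929 and 1 in Control and 0.303, 0.095, 0.251 and 0.528 in Prmt5-null. Every Control value was above every Prmt5-null value, with means of 0.935 and 0.294 and a difference of -0.64. The reads behind them were few, 8 to 49 in a library and 184 in all. Control libraries had 117 reads for the exon and 6 across the skipping junction, and Prmt5-null libraries had 25 and 36. Skipping reads thus outnumbered inclusion reads only in Prmt5-null, in summed reads, and the level of the gene itself overlapped between the genotypes.

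As 98 is not a multiple of 3, its absence shifts the reading frame. In the annotated transcript (GENCODE vM21) without exon 9, the first stop codon ends 186 bases past the new junction, in exon 11 and 535 bases before the last junction, which leaves 786 of 1545 coding bases. The joined form is shown from 15 bases before the junction to that stop codon, which is in capitals, since its mean share was higher in Prmt5-null.
Mutyh without exon 9: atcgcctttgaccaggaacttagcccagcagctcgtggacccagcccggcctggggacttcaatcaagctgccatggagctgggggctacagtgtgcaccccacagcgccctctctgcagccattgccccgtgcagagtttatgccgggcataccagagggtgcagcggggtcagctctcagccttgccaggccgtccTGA

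A retained intron was the other large Mutyh event, the 203 bases after exon 14 at chr4:116818038-116818240 on the plus strand. Its levels were 0.373, 0.247, 0.379 and 0.582 in Control and 0.609, 0.820, 0.831 and 0.733 in Prmt5-null. The groups were apart, with the highest Control value close to the lowest Prmt5-null one. The means were 0.395 and 0.748, a difference of 0.35, from 397 reads, 28 to 78 in a library. Read in the frame of exon 14 the intron holds 2 stop codons, which start at its bases 55 and 94. It begins with GC rather than GT, as did 5 of the 337 retained introns in all genes (1.48%), while 98.2% began with GT. Its sequence is given for that unusual start, with the first 2 and last 2 bases and both stop codons in capitals.
Mutyh intron after exon 14: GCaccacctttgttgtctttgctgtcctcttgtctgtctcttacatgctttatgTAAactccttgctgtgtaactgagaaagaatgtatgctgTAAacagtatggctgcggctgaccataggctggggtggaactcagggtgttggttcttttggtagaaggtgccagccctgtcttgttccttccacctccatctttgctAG

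The mutually exclusive exon event of Mutyh pairs exon 8 (114 bases, chr4:116816583-116816696) with exon 9. Its levels, the share with exon 8, were 0.651, 0.515, 0.412 and 0.509 in Control and 0.882, 0.941, 0.867 and 0.663 in Prmt5-null. They were apart, with means of 0.522 and 0.838. Since annotated transcripts hold both exons, the junctions counted for exon 9 here also belong to the full transcript, and the event shares exon 9 with the skipped exon above.

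**Figure D4:**
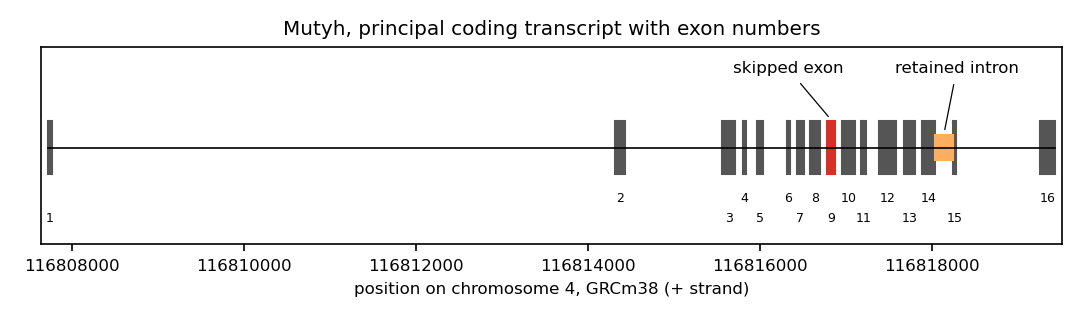
Exons of the principal Mutyh transcript along chromosome 4 (GRCm38, plus strand, position in bases), numbered from the start of the gene. Exon 9, whose mean inclusion was 0.935 in Control and 0.294 in Prmt5-null, and the intron after exon 14, at 0.395 and 0.748, are marked in color.

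Neil1 had the most deeply covered events. Its skipped exon is exon 8 of 10, 62 coding bases at chr9:57143758-57143819 on the minus strand. The levels were 0.826, 0.732, 0.693 and 0.691 in Control and 0.606, 0.518, 0.647 and 0.565 in Prmt5-null. All Prmt5-null values lay below all Control values, although by little, and the means of 0.736 and 0.584 differed by -0.15. It rests on 4320 reads, 191 to 847 in a library, many more than the Mutyh exon. Skipping reads came to 520 beside 2126 inclusion reads in Control and to 560 beside 1114 in Prmt5-null. Without exon 8 the frame shifts and the first stop codon ends 62 bases past the junction, in exon 9 and 101 bases before the last junction, leaving 933 of 1167 coding bases. The exon in capitals between 15 bases on either side, and the joined form up to its stop codon in capitals, are shown for comparison with the Mutyh form.
Neil1 exon 8 with flanks: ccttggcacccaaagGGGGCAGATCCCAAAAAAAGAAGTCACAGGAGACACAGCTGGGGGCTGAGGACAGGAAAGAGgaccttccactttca
Neil1 without exon 8: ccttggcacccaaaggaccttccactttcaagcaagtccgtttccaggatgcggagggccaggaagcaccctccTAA

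In the other Neil1 event exon 2 (457 bases, chr9:57146601-57147057, with the start codon) is set against exon 3 (120 bases, chr9:57145098-57145217). Levels for exon 2 were 0.696, 0.716, 0.744 and 0.745 in Control and ran from 0.804 to 0.879 in Prmt5-null, from 14713 reads. They were apart, with means of 0.725 and 0.847. Both exons are joined in annotated transcripts, so this level is not the share of a switch between them.

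Neil3 had slightly lower inclusion of exon 9 of 10, 175 bases at chr8:53588925-53589099 on the minus strand. The levels were 1, 1, 0.970 and 1 in Control and 0.895, 0.897, 0.820 and 0.869 in Prmt5-null. Nearly all Control transcripts kept the exon, and each Prmt5-null value was lower than each Control value, with means of 0.993 and 0.870. The difference of -0.12 rested on 8 skipping reads in Prmt5-null and 1 in Control, of 428 reads in all. Without exon 9 the frame meets a stop codon that ends 52 bases past the junction in the last exon, leaving 1512 of 1818 coding bases.

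Lig3 has alternative 5′ splice sites at the end of exon 1, which lies before the exon with the start codon. The longer form has 4 more bases, chr11:82781273-82781276 on the plus strand. Its levels were 0.612, 0.673, 0.676 and 0.452 in Control and 0.736, 0.845, 0.839 and 0.867 in Prmt5-null. The genotypes were apart, with means of 0.603 and 0.822 (difference 0.22) from 428 reads, 37 to 63 in a library. The coding sequence is the same in both forms. The 4 bases are in capitals after the 20 bases that both forms have, and they show that the intron of the shorter form begins with GC, as the retained intron of Mutyh does.
Lig3 end of exon 1: gagccagggcagccgagaagGCAG

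In Tdp2 inclusion was lower for exon 4 of 7, 92 bases at chr13:24836855-24836946 on the plus strand. The levels were 0.365, 0.821, 0.242 and 0.365 in Control and 0.161, 0.177, 0 and 0.147 in Prmt5-null. All 4 Prmt5-null values were below the lowest Control value, with means of 0.448 and 0.121 and a difference of -0.33. Only 68 reads lie behind them, 4 to 14 in a library. In the principal transcript without exon 4 a stop codon ends 4 bases past the junction, in exon 5, leaving 456 of 1110 coding bases. Whether the exons that flank the event are those of this transcript was not checked. The gene itself had a mean of 2237 normalized counts in Prmt5-null and 1978 in Control. With so few of its reads on the event, the levels need not be shares of all Tdp2 transcripts.

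The retained intron of Polg is the 78 bases after exon 19 of 23, chr7:79452029-79452106 on the minus strand. The levels were 0.160, 0.131, 0.269 and 0.298 in Control and 0.298, 0.419, 0.329 and 0.281 in Prmt5-null. They overlapped, and the means of 0.215 and 0.332 differed by 0.12, from 1542 reads, 135 to 244 in a library. The intron begins with GT and meets a stop codon at its base 2 in the frame of exon 19, so that the transcripts with it hold a frame that ends there. It is printed with its first 2 and last 2 bases and that stop codon in capitals, beside the Mutyh intron that begins with GC.
Polg intron after exon 19: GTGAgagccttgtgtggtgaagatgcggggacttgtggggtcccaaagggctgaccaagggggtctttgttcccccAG

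For Dclre1c the skipped exon is exon 5 of 14, 56 bases at chr2:3436438-3436493 on the plus strand. Its levels were 0.828, 0.707, 0.633 and 1 in Control and 1, 0, 0.674 and 0.216 in Prmt5-null. Prmt5-null values covered the whole range and overlapped the Control values, at 55 reads in all and as few as 2 in a library. The means were 0.792 and 0.473, and with the reads of a genotype summed the levels were 0.810 and 0.287. The other event sets exon 3 (85 bases, chr2:3429268-3429352) against exon 5, with levels of 0.762, 0.855, 0.876 and 0.612 in Control and 0.944, 1, 0.886 and 0.886 in Prmt5-null. These were apart, with means of 0.776 and 0.929, but the reads counted against exon 3 are the inclusion reads of the skipped exon in 8 of 8 libraries, so the events are not independent. In the principal transcript with only exon 5 removed, the frame would end 21 bases past the junction in exon 6. The shared reads also belong to an event whose first flanking exon lies before exon 3. The form counted without exon 5 may therefore differ from that transcript, and its frame was not read.

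Alkbh3 had both its events at its first exon, on the minus strand of chromosome 2 and before the exon with the start codon. An alternative 5′ splice site adds 420 bases (chr2:94010263-94010682), with levels of 0.422, 0.588, 0.414 and 0.455 in Control and 0.871, 0.674, 0.695 and 0.818 in Prmt5-null. A separate exon of 146 bases (chr2:94010263-94010408) lies within them, with levels of 0.401, 0.641, 0.458 and 0.533 in Control and 0.903, 0.697, 0.700 and 0.830 in Prmt5-null. In both events Prmt5-null values were higher without overlap, with differences of 0.29 from 1311 reads and 0.27 from 834 reads. The skipping reads are the same in 8 of 8 libraries, 126 in Control and 46 in Prmt5-null, so this is 1 difference seen in both tables. It is the only 1 of the 7 skipped exon events of the members with a higher level in Prmt5-null.

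Polg2 rested on the fewest reads, 14 in all and 1 to 3 in a library. The exon, 91 bases at chr11:106778717-106778807 on the minus strand, is absent from the principal transcript. Levels were 1, 1, 1 and 0.366 in Control and 0, 0.224, 0 and 1 in Prmt5-null, which overlapped. At this depth the means of 0.842 and 0.306 carry little precision, and summed reads gave 0.698 and 0.316.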

How the data were processed

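RNA was taken from B cells of 4 Prmt5-null and 4 Control mice, depleted of ribosomal RNA and sequenced as strand-marking libraries. Per the submitters' processing notes the tools were Trimmomatic 0.32, STAR 2.3.0e, featureCounts 1.4.4 and DESeq2 1.14.1, with builds GRCm38 and mm10. The authors deposited the gene table as a normalized signal: uniquely mapped reads on the exons of a gene, scaled with DESeq2 size factors. The strand setting of the counting is not given in the sources used here, so genes that overlap on opposite strands are uncertain, and unique mapping drops reads shared with close copies. Whole reads were recovered from 100% of values (tolerance 0.001) and served edgeR 4.0.16 and DESeq2 1.42.0 as alternatives. The main test, run in R 4.3.3, was the two-sided moderated test of limma 3.58.1 with trend. It used log2(normalized count + 1) of genes with a mean of at least 10, with Benjamini-Hochberg adjustment over all genes tested. It was tested on simulated data. Single values were compared by the two-sided exact permutation test over the 70 assignments of 8 libraries. No library was left out of the main test, no libraries were duplicates, and experiments could not be a covariate, as no label assigns them.

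Alternatives were a pseudocount of 0.5 or 5, no filter, a mean above 50, quantile normalization, no trend, edgeR and DESeq2. Others were leaving out each library and the experiment as a block in 18 possible placements. Of these placements, only those with the lowest and the highest adjusted p entered the count of 18 alternatives for a gene. The rMATS tables of the authors hold, for each event, inclusion levels as lists of 4 fractions a genotype. They also hold the inclusion and skipping read counts behind them, as deposited, and the authors' p-values and FDR, which were not used. Which list is Control was inferred. The authors' column of inclusion differences is the first list minus the second, and the paper's legend gives the difference as WT/KO. That column served for nothing else. Recomputing a level from its reads and form lengths differed from the deposited fraction by at most 0.000492. Events are a selection by the authors' test and were given none here. Coordinates are those of GRCm38, and exons, frames and sequences come from GENCODE vM21 transcripts, which are not the Ensembl set of the authors.

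All members were matched by symbol. Of the genes of all lists 175 were matched by symbol and 7 by Ensembl ID, and 1, Shld3, was not matched. The members and lists were chosen with earlier results of these data known. Named are all members, Prmt5 and each splicing event of a member. Of other lists, the genes that passed at 1.5-fold are named, and of marker lists the most abundant gene and those near 0. Some genes of these lists and some sequences are not reported here.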

Additional observations from a re-analysis of the deposited data

Results flagged for a closer look

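In 4 of 116 groups of 4 values checked, the lowest value stood far from the other 3, measured as its gap to the nearest value divided by the range of the group. Chance alone does this in about 1 of 20 groups of normally distributed values. That rate does not hold for inclusion levels, which are bounded, often tied at 1 and at times drawn from few reads. For Neil3, mouse CTRL-10650 had 448.1 normalized counts against 615.0, 636.6 and 648.6 in the other Control mice, a gap of 0.832 of the range. For the skipped exon of Neil3, a Control inclusion level of 0.970 stood below 3 values of 1, a gap of 1 that comes from a single skipping read. For the skipped exon of Tdp2, a Prmt5-null level of 0 stood below 0.147, 0.161 and 0.177, a gap of 0.831. For the skipped exon of Polg2, a Control level of 0.366 stood below 3 values of 1, a gap of 1 from 1 to 2 reads a library.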

How the results depend on the processing

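Neil3, Polb and Xrcc5 kept their direction and an adjusted p below 0.05 in all 18 alternatives, Lig3 in 16, Ogg1 in 14 and Polg in 9. Members that passed at 1.5-fold numbered 1 to 2, and those that passed at any fold 3 to 7, as each library was left out. Fewer samples enter those fits, and the cause beyond that was not tested. Without a filter the adjusted p of Polg was 0.0509, without a trend 0.0901, and it passed in 12 of 18 placements of an experiment block. Mpg passed with DESeq2, at 0.0484, without mouse CTRL-10650, at 0.0442, and in 1 of the 18 placements, at 0.036; Neil1 passed in 1 placement, at 0.0498, and without mouse PRMT5-10618, at 0.0356. Of all genes, 1053 passed at 1.5-fold in limma, 1091 in edgeR and 1277 in DESeq2.

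The sign turned for 10 members, none with an adjusted p below 0.05, as libraries were left out. Their log2 fold changes ranged from -0.2241 to 0.0602 for Mutyh, -0.2396 to 0.0001 for Smug1, -0.0223 to 0.0963 for Tdg, -0.0646 to 0.1012 for Fen1, -0.0315 to 0.176 for Polg2, -0.2829 to 0.0314 for Dclre1c, -0.2066 to 0.0395 for Nhej1, -0.0405 to 0.1328 for Polm, -0.2638 to 0.0396 for Prkdc and -0.0043 to 0.0536 for Trp53bp1. The cause was not tested.

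Members with a splicing event numbered 9, and 5 when a difference of at least 0.25 was asked for, by the construction of that limit. Libraries could not be left out of the inclusion levels, as the lists do not name them. Every event kept the direction of its difference with levels recomputed from summed reads and with junction reads alone. With summed reads the Dclre1c skipped exon went from -0.3195 to -0.5236, over 1.5 times, and Polg2 from -0.5355 to -0.3819; libraries with few reads weigh less in the sums. Depth limits the events of Polg2, Dclre1c, Tdp2 and Mutyh, with 14, 55, 68 and 184 reads.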
